A study of Mus musculus with 15 samples.

Results

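The mouse Hox genes are the 39 homeobox genes of the Hoxa, Hoxb, Hoxc and Hoxd clusters, chosen here by symbol, and all 39 had a probe on the array, among 20145 genes with a probe and a symbol. The Hoxa cluster holds 11 of them, the Hoxb cluster 10, the Hoxc cluster 9 and the Hoxd cluster 9. Where a gene had several probes, the brightest was used. RNA of female FVB/N mice was hybridised to 15 one-colour microarrays, 1 array per sample. The 4 neo-livers were liver tissue that had grown from 1000000 hepatocytes of transgenic FVB/N donors carrying human α1-antitrypsin (hA1AT), placed under the kidney capsule and microdissected from the kidney between days 250 and 300. The 4 host livers and 4 host kidneys came from the wild-type FVB/N recipients, which were 48 to 55 weeks old at sampling and had all received 2 doses of monocrotaline, a plant toxin that injures the liver, at 70 mg/kg. The 3 control livers came from normal FVB/N mice 20 weeks old, so age, toxin and transplantation all separate them from the other groups. A neo-liver can hold donor and host cells, and a piece cut from a kidney can carry kidney with it. No label ties equal sample numbers to 1 mouse, and p-values measure the spread between these samples.

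Hox proteins are transcription factors that give cells their position along the body axis. Genes at the start of a cluster (low paralog numbers) are switched on first and furthest forward, and those at the end (high numbers) last and furthest back. Adult cells often keep the Hox pattern of the place where they arose. The kidney arises from intermediate mesoderm of the trunk, in which many Hox genes are on, and the group 11 genes are needed to build it. Hepatocytes arise from foregut endoderm, which lies further forward. Proteins of the Pbx, Meis and Pknox families bind DNA together with Hox proteins, and Trithorax and Polycomb proteins hold the clusters open or closed.

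Promoters of 3 members that are taken up again below are shown, since they stand for a gene whose neo-liver signal was a small share of that in kidney (Hoxb8), a gene below background on every host and control liver array (Hoxd8) and a gene measured in all tissues (Hoxb4). Each is the 250 bases before the start of the gene in RefSeq (GRCm38.p6), on the plus strand, at chr11:96281655-96281904 for Hoxb8, chr2:74704365-74704614 for Hoxd8 and chr11:96318017-96318266 for Hoxb4. Capitals mark matches, on either strand, to the TATA box TATAAA, the CCAAT box CCAAT, the caudal (Cdx) site TTTATG, the Hox-Pbx site TGATTNAT or the Meis site TGACAG. None of these motifs overlapped another in the printed stretches.
Hoxb8 promoter: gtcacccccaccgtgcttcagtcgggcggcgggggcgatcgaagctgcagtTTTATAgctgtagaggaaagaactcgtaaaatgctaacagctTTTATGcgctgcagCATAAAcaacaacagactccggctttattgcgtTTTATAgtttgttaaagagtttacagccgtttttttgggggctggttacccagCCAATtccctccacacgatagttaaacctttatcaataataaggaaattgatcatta
Hoxd8 promoter: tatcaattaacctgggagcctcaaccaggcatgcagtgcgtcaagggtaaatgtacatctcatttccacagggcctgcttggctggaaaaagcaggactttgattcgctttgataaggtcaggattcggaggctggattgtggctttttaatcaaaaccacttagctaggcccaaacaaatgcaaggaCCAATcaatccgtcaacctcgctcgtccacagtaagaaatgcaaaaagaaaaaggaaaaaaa
Hoxb4 promoter: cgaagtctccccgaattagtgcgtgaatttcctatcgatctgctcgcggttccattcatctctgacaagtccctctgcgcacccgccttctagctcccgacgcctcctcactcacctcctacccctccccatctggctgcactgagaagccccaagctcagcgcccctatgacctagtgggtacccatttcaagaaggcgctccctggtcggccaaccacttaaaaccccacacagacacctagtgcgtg
The Hoxb8 stretch held 2 TATA boxes, 2 caudal sites and 1 CCAAT box, the Hoxd8 stretch 1 CCAAT box, and the Hoxb4 stretch none of these letters. RefSeq promoters were at hand for 22 of the 39 members, as 24 promoters. The CCAAT box occurred in 14 of the 24, against 33.9% of all 32851 promoters. The TATA box occurred in 4 against 12.4% of all promoters, the caudal site in 5 against 10.8%, the Hox-Pbx site in 2 against 2.83% and the Meis site in 2 against 15.9%. Hox promoters had a median of 12.5 CG pairs (2 to 35), against a median of 6 over all promoters. These matches describe letters and are no evidence of binding.

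Levels below are log2 signals relative to the 75th percentile of the same array, so a level of 0 equals that percentile, and levels are compared only between samples of the same gene. Above background means above the scanner software's own background call. Neo-liver arrays had 28, 29, 28 and 28 of the 39 members above background, host liver arrays 8, 11, 9 and 7, host kidney arrays 29, 30, 29 and 30, and control liver arrays 12, 9 and 10. Of all probes, 56.1 to 60.7% were above background on neo-liver arrays and 46.4 to 51.9% on host liver arrays. On host kidney arrays the share was 62.5 to 67.6%, and on control liver arrays 53.8 to 55.3%. The lowest signal called above background was -5.89 to -5.34 on host kidney arrays and -4.26 to -3.53 on host liver arrays. A dim member could thus be measured in kidney alone. Counting only members above background on every array of a group gave 28 in neo-liver, 7 in host liver, 29 in host kidney and 9 in control liver. The 28 of neo-liver were all among the 29 of host kidney, and the one left over, Hoxd11, was below background on every neo-liver array.

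**Figure D1:**
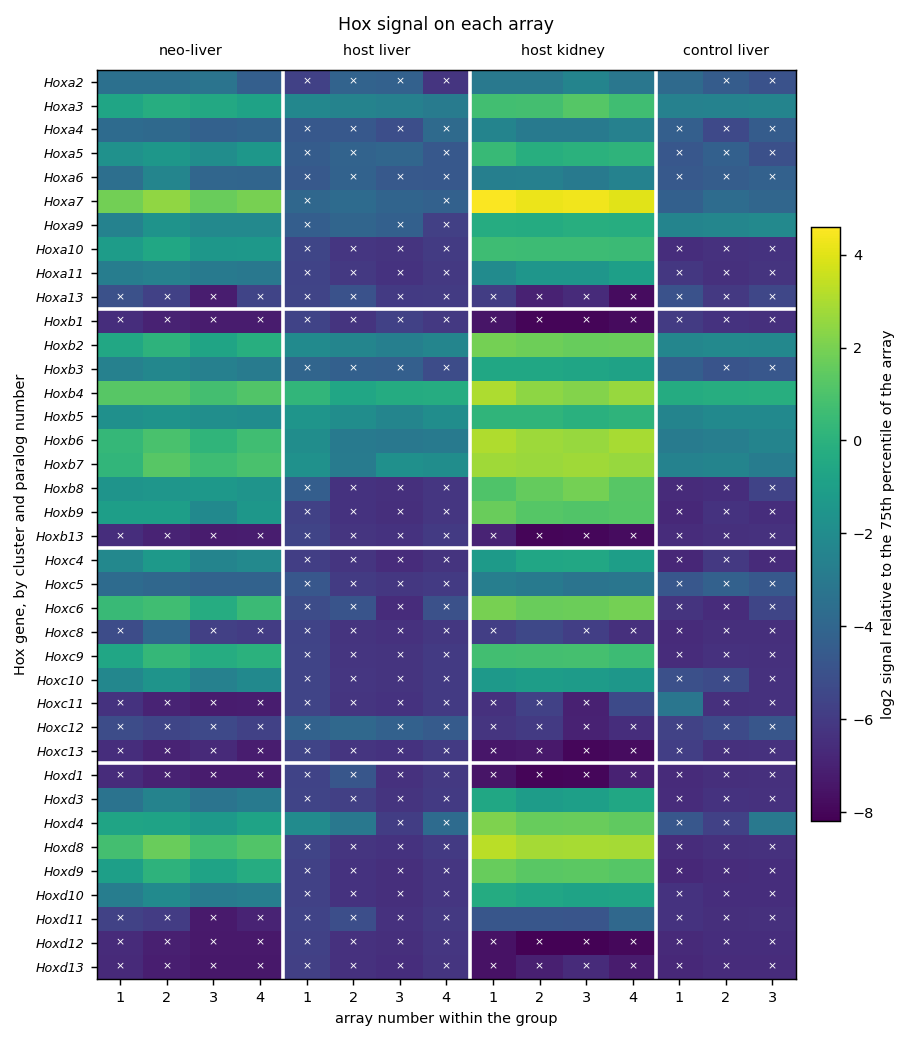
Signal of Hox genes (rows, by cluster and paralog number) on each of the 15 arrays (columns, by group); colour is the log2 signal relative to the 75th percentile of the array, and a cross marks a signal not well above background. Neo-liver and host kidney columns share nearly the same measured genes, while host and control liver columns have crosses in all of the Hoxc rows on nearly every array.

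Counted by cluster, 8 Hoxb genes were above background on every neo-liver array, 5 on every host liver array, 8 on every host kidney array and 5 on every control liver array. In the Hoxa cluster the counts were 10 in neo-liver, 2 in host liver, 10 in host kidney and 4 in control liver. Neo-liver had 5 genes of the Hoxc and 5 of the Hoxd cluster, and host kidney had 5 and 6, while no gene of these clusters was above background on all arrays of host liver or of control liver.

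By position in the cluster, the 8 anterior genes (groups 1 to 3) gave 6 measured in neo-liver, 3 in host liver, 6 in host kidney and 3 in control liver. The 15 central genes (groups 4 to 8) gave 14, 4, 14 and 5 in the same order. The 16 posterior genes (groups 9 to 13) gave 8, 0, 9 and 1. The posterior gene measured in control liver was Hoxa9. Hoxa3, Hoxb2, Hoxb4, Hoxb5, Hoxb6 and Hoxb7 were among those above background on all 15 arrays, and Hoxa7 and Hoxa9 joined them in control liver.

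Of the 39 members 10 were above background on every array of no group and were not tested. These were Hoxa13, Hoxb1, Hoxb13, Hoxc8, Hoxc11, Hoxc12, Hoxc13, Hoxd1, Hoxd12 and Hoxd13. All genes of groups 12 and 13 were among them; Hoxa13 and Hoxd13 pattern digits and the genital tract, Hoxb13 the prostate and Hoxc13 hair and nails. Hoxc8 was above background on neo-liver array 2 and on 1 host kidney array, Hoxc11 on 1 host kidney array and 1 control liver array, and Hoxc12 on 1 host liver array. The other 29 were tested, and each of them passed through host kidney, where all 29 were above background on every array.

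The comparison of neo-liver with host kidney asks how far Hox genes of the grafted liver tissue stand from those of the organ that carried it. Hox signal was lower in neo-liver. Among the 28 members above background on every array of both groups, 27 were called lower (limma, Benjamini-Hochberg adjusted p below 0.05 over 15620 genes) with a median log2 difference of -1.80 and a range of -2.97 to -0.75. Counting Hoxd11, which was below background on all neo-liver arrays and passed the filter through kidney alone, 28 of 29 were called lower. Over all genes tested, 29.4% were called lower and the median difference was -0.09. Levels of 28 members did not overlap between the groups, all lower in neo-liver, as was so for 28.4% of all genes. All host kidney arrays were on 1 slide that held no other tissue, and in comparisons with kidney the slide and the tissue cannot be told apart. Host liver arrays were also on slides that held no other group, so the same is true of comparisons with host liver.

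Among anterior genes, Hoxa3, needed for the parathyroid and thymus, had levels of -0.69, -0.23, -0.46 and -0.80 in neo-liver and of 0.73, 0.79, 1.25 and 0.69 in host kidney. Hoxb2, a hindbrain gene, had -0.51, 0.08, -0.75 and -0.18 in neo-liver and 1.94, 1.77, 1.62 and 1.67 in host kidney. In each gene the highest neo-liver array was below the lowest kidney array. The log2 difference was -1.41 ± 0.17 (SE; adjusted p = 1.15e-05) for Hoxa3 and -2.09 ± 0.17 (adjusted p = 2.82e-07) for Hoxb2. Hoxb3 averaged -2.59 ± 0.26 in neo-liver and -0.67 ± 0.12 in host kidney (SD, n = 4 each), 3.78-fold lower, and Hoxd3 was 4.56-fold lower. Hoxa2, the selector gene of the second pharyngeal arch, was the member not called, at -0.75 ± 0.44 (adjusted p = 0.171). Its neo-liver levels of -3.50, -3.46, -3.29 and -4.35 were dim and lay below the kidney levels of -3.05, -3.01, -2.44 and -3.12.

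Among central genes, Hoxa7 had levels of 1.89, 2.50, 1.65 and 1.98 in neo-liver and of 4.52, 4.22, 4.30 and 4.04 in host kidney. Hoxb8, which acts in the trunk and in blood progenitors, had -1.59, -1.47, -1.38 and -1.57 in neo-liver and 1.09, 1.60, 1.92 and 1.28 in host kidney. Its 4 neo-liver arrays lay within a narrow band while its kidney arrays spread more widely. The fall of 2.97 ± 0.39 on the log2 scale for Hoxb8 (7.83-fold, adjusted p = 3.02e-05) was the largest among the 29 members tested, and Hoxa7 fell by 2.27 ± 0.19 (4.81-fold, adjusted p = 3.85e-07).

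Hoxb7, whose regulatory DNA is widely used to drive transgenes in the ureteric bud and collecting duct, had levels of 0.24, 1.26, 0.62 and 0.95 in neo-liver. In host kidney it had 2.77, 2.69, 2.76 and 2.63, with little spread. Hoxb6 had 0.32, 0.90, 0.17 and 0.66 in neo-liver and 3.07, 2.72, 2.63 and 2.95 in host kidney. Neither gene's groups overlapped. Hoxb7 was 3.86-fold and Hoxb6 5.02-fold lower in neo-liver (adjusted p = 2.32e-05 and 2.81e-06).

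Hoxb4, known in blood stem cells, had levels of 1.28, 1.25, 0.76 and 1.11 in neo-liver and of 3.005, 2.42, 2.21 and 2.61 in host kidney, and Hoxb5 had -1.75, -1.63, -1.89 and -1.96 in neo-liver and 0.16, 0.20, -0.08 and 0.12 in host kidney. Both were lower on all neo-liver arrays, by -1.46 ± 0.20 for Hoxb4 and -1.91 ± 0.16 for Hoxb5 (adjusted p = 4.03e-05 and 3.1e-07). Hoxa5, needed for the lung, had -1.75, -1.43, -1.95 and -1.42 in neo-liver and 0.42, -0.17, -0.01 and 0.12 in host kidney, 3.31-fold lower. Hoxd4 had -0.73, -0.76, -1.33 and -0.76 in neo-liver and 2.10, 1.63, 1.68 and 1.49 in host kidney, a difference of -2.62 ± 0.68 in a fit whose other arrays scattered, with an SD of 1.63 in host liver and 1.37 in control liver. In Hoxa5 and Hoxd4 every neo-liver array lay below every kidney array. Hoxd8 had 0.78, 1.67, 0.73 and 1.15 in neo-liver and 3.29, 2.89, 2.92 and 2.88 in host kidney, 3.76-fold lower. Hoxc6 had 0.48, 0.65, -0.27 and 0.54 in neo-liver and 1.96, 1.67, 1.74 and 1.93 in host kidney, 2.77-fold lower. These also did not overlap between the groups. Hoxa6 was the member whose groups overlapped, through neo-liver array 2 at -2.39, and its call (-0.75 ± 0.29, adjusted p = 0.0409) was lost in 9 of the alternative settings. Hoxc5 differed by -0.96 ± 0.27 (adjusted p = 0.00878), and Hoxa4 and Hoxc4 were 2.38-fold and 2.29-fold lower in neo-liver.

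Among posterior genes, Hoxb9 had levels of -1.02, -1.05, -2.15 and -1.45 in neo-liver and of 1.69, 1.21, 1.12 and 1.24 in host kidney. Hoxd9 had -0.99, 0.08, -0.76 and -0.30 in neo-liver and 1.65, 1.33, 1.40 and 1.21 in host kidney. Hoxc9 had -0.61, 0.34, -0.25 and -0.04 in neo-liver and 0.74, 0.80, 0.84 and 0.57 in host kidney. The groups did not overlap in any of the 3 genes, but the gap was smaller in Hoxc9. Hoxb9 was 6.65-fold, Hoxd9 3.70-fold and Hoxc9 1.84-fold lower in neo-liver (adjusted p = 6.48e-07, 8.95e-06 and 0.0017). Hoxa9, known in blood progenitors and leukaemia, had -2.54, -1.61, -2.16 and -2.16 in neo-liver and -0.29, -0.33, -0.16 and -0.23 in host kidney. Hoxa10, needed for the uterus and, with the other group 10 genes, for kidney stroma, had -1.11, -0.57, -1.44 and -1.37 in neo-liver and 0.64, 0.56, 0.56 and 0.51 in host kidney, 3.23-fold lower. Hoxc10 had -2.25, -1.55, -2.59 and -2.13 in neo-liver and -1.27, -1.05, -1.19 and -1.42 in host kidney, 1.87-fold lower (adjusted p = 0.0149). Neo-liver lay below kidney on all arrays in these 3 genes also. Hoxa9 was 3.64-fold and Hoxd10 4.003-fold lower. The adjusted p of Hoxc10 was 0.0503 without neo-liver array 3.

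The group 11 genes, which together are required for the ureteric bud to branch in the mouse, gave 2 tested members. Hoxa11 averaged -2.84 ± 0.21 in neo-liver and -1.48 ± 0.43 in host kidney (SD, n = 4 each), 2.57-fold lower. Hoxd11 was below background on all 4 neo-liver arrays, whereas host kidney had -4.79, -4.78, -4.83 and -3.86. It was at least 1.24-fold lower in neo-liver, where "at least" compares host kidney with the lowest signal called above background on each neo-liver array, or the gene's own signal if that was higher. This bound is small because Hoxd11 was dim in kidney also.

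By cluster, the median log2 difference between neo-liver and host kidney was -1.39 for the 10 tested Hoxa genes, -2.02 for 8 Hoxb genes, -0.96 for 5 Hoxc genes and -1.96 for 6 Hoxd genes. By position it was -1.67 for anterior, -1.82 for central and -1.87 for posterior genes. Differences between clusters were not tested, because genes of a cluster are not replicates. Of the samples numbered alike, array 1 and array 3 had all 29 members lower in neo-liver than in host kidney, array 4 also all 29, and array 2 had 28, with Hoxa6 higher.

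**Figure D2:**
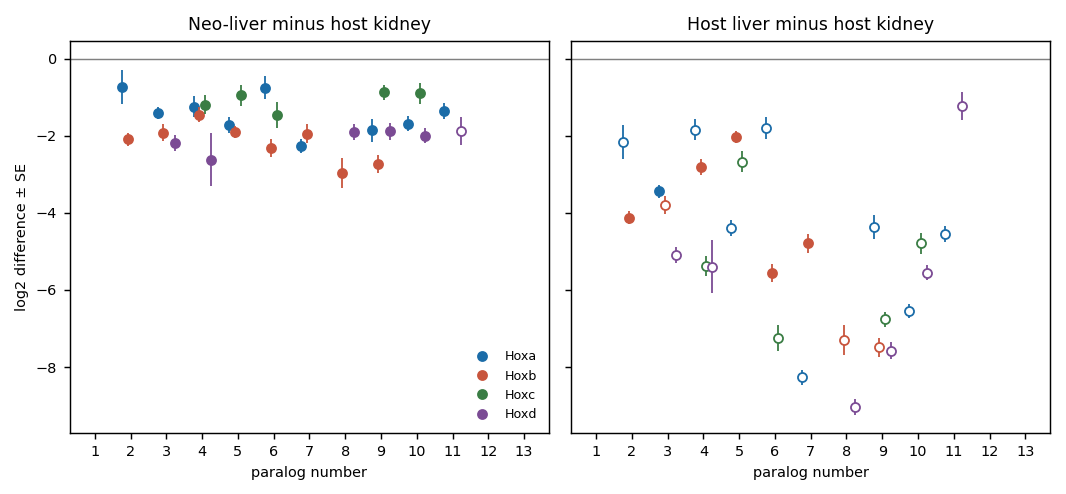
Log2 difference (points, ± SE from limma) of tested Hox genes against paralog number, coloured by cluster, for neo-liver minus host kidney (left) and host liver minus host kidney (right); open points mark genes not above background on every array of neo-liver (left) or host liver (right). All points lie below 0, between -2.97 and -0.75 on the left and between -9.03 and -1.23 on the right.

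Host liver against host kidney shows the distance between the 2 organs of the host. Only 7 tested members were above background on every array of both, and all 7 were called lower in host liver, against 31.2% of all genes. Their median log2 difference was -3.44, and the lowest was -5.55. The other 22 were not measured on every host liver array and passed the filter through groups where they were brighter, so their calls add nothing to this. Hoxb6 had levels of -1.94, -2.91, -3.08 and -2.90 in host liver and of 3.07, 2.72, 2.63 and 2.95 in host kidney, 46.9-fold lower. Hoxb7 had -1.74, -2.87, -1.77 and -1.95 in host liver, 27.8-fold lower than in host kidney. Hoxb4 had 0.24, -0.63, -0.35 and -0.27 in host liver, 7.02-fold lower. Groups did not overlap in any of these 3.

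Where all host liver arrays were below background, the difference has a lower bound only. Hoxd8 was at least 125-fold lower in host liver than in host kidney, Hoxc6 at least 55.6-fold, Hoxb8 at least 43.5-fold, Hoxd9 at least 41.3-fold and Hoxb9 at least 39.1-fold. Hoxa10 was at least 23.3-fold and Hoxc9 at least 26.2-fold lower. Hoxa7, above background on host liver arrays 2 and 3, had -3.95, -3.73, -4.05 and -4.23 on the host liver arrays and 4.04 to 4.52 in host kidney. Since only 2 of the 4 host liver arrays measured it, no fold is given. A signal of this gene that was far above the percentile in kidney was thus at the edge of detection in liver.

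Neo-liver against host liver compares liver tissue in the kidney with the livers of hosts. Of the 7 members above background on every array of both groups, 6 were called higher in neo-liver, and 17.1% of all genes were. Of the 21 members measured on every array of neo-liver but not of host liver, which passed the filter where they were brighter, 20 were called higher, and their count is no support. In all, 26 of 29 were called higher, with none lower (31.0% of all genes were called lower), and 25 did not overlap with neo-liver higher, as was so for 13.7% of all genes. The median of all genes was -0.21 in this comparison.

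Hoxb6 levels of 0.17 to 0.90 in neo-liver lay above host liver levels of -3.08 to -1.94, a 9.34-fold difference (log2 3.22 ± 0.24, adjusted p = 2.22e-07). Hoxb7 was 7.20-fold higher, Hoxb2 4.12-fold, Hoxa3 4.09-fold and Hoxb4 2.56-fold, with no overlap in any of them. Hoxb5 was the exception among the 7. Its host liver levels of -1.53, -1.94, -2.38 and -1.91 overlapped with the neo-liver levels of -1.75, -1.63, -1.89 and -1.96, and the difference was 0.13 ± 0.16 (adjusted p = 0.509). Hoxb5 was therefore measured in all 4 tissues, was 4.12-fold lower in host liver than in host kidney, and had neo-liver levels within the host liver range.

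Hoxa7 stood at 1.65 to 2.50 in neo-liver and at -4.23 to -3.73 in host liver, where 2 of the 4 arrays measured it. For genes below background in host liver the bounds were at least 33.3-fold for Hoxd8, at least 20.1-fold for Hoxc6, at least 14.3-fold for Hoxc9, at least 11.2-fold for Hoxd9, at least 7.21-fold for Hoxa10, at least 5.89-fold for Hoxb9 and at least 5.56-fold for Hoxb8. Hoxb3 was at least 2.62-fold and Hoxc10 at least 3.59-fold higher. Besides Hoxb5, Hoxa4 was not called (0.60 ± 0.28, adjusted p = 0.0902), nor was Hoxd11, which was below background in both. With the samples' numbers as a block Hoxa4 reached an adjusted p of 0.0408. Without host liver array 4 it reached 0.0126, and on that setting Hoxa2 lost its call.

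Against the control livers, 7 of the 9 members above background on every array of both groups were called higher in neo-liver, and 20.4% of all genes were. Over the 29 tested the count was 23 higher and none lower, where 29.7% of all genes were called lower, but 16 of the 23 were not measured on every control liver array and passed the filter where they were brighter. Hoxa7 was 63.1-fold higher in neo-liver, where control liver had -4.30, -3.66 and -3.97, and Hoxb7 was 10.2-fold higher against -2.51, -2.44 and -2.81 in control liver. The Hoxa7 signals of control liver were near the lowest called above background on those arrays (-4.48 to -4.27), so its fold is a rough size. Hoxb5 was not called (0.42 ± 0.17, adjusted p = 0.0519), though neo-liver lay above control liver on all arrays. It was called in a fit of the 2 groups alone (adjusted p = 0.0349), with the slide as a random block (adjusted p = 0.0497) and with the stricter filter (adjusted p = 0.0484). Nor was Hoxa9 called (0.20 ± 0.33, adjusted p = 0.632). Hoxa9 levels in neo-liver overlapped with control liver levels of -2.43, -2.33 and -2.19. Hoxa9 was called with the mean of its 2 probes, at 0.74 (adjusted p = 0.019). Neo-livers and control livers share a slide, so this comparison lies within 1 slide.

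Host liver and control liver compare the livers of toxin-treated hosts with those of normal mice. This comparison gave 1 higher call (13.3% of all genes) and 2 lower calls (11.2% of all genes) among the 29. Of these, 20 were above background on every array of neither group, so most members had no measured level to compare. Leaving out 1 array at a time gave 2 to 4 calls in all. Hoxa3, Hoxb2, Hoxb4, Hoxb5, Hoxb6 and Hoxb7, measured on every array of both, differed by -0.13 to 0.51 on the log2 scale, and none of them was called. Hoxa3, Hoxb2, Hoxb4 and Hoxb6 differed by less than 0.14 in size. Hoxb7 stood at 0.51 ± 0.27 and reached an adjusted p of 0.0182 without host liver array 2, and Hoxb5 reached 0.0495 with median centring.

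Hoxa9 was lower in host liver, with -4.38, -4.05, -4.28 and -5.77 against -2.43, -2.33 and -2.19 in control liver, so the groups did not overlap. The brighter probe of Hoxa9 was above background on host liver array 2 alone, so the fitted difference of -2.30 ± 0.33 (adjusted p = 0.000445) rests on signals that were not measured on the other 3 arrays and is not a size. The other probe of Hoxa9 gave -0.44. Hoxc5 was the other lower call (adjusted p = 0.0121), but it was below background on every array of both groups, so it has no fold, and the call was lost in 3 settings, among them leaving out control liver array 2.

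**Figure D3:**
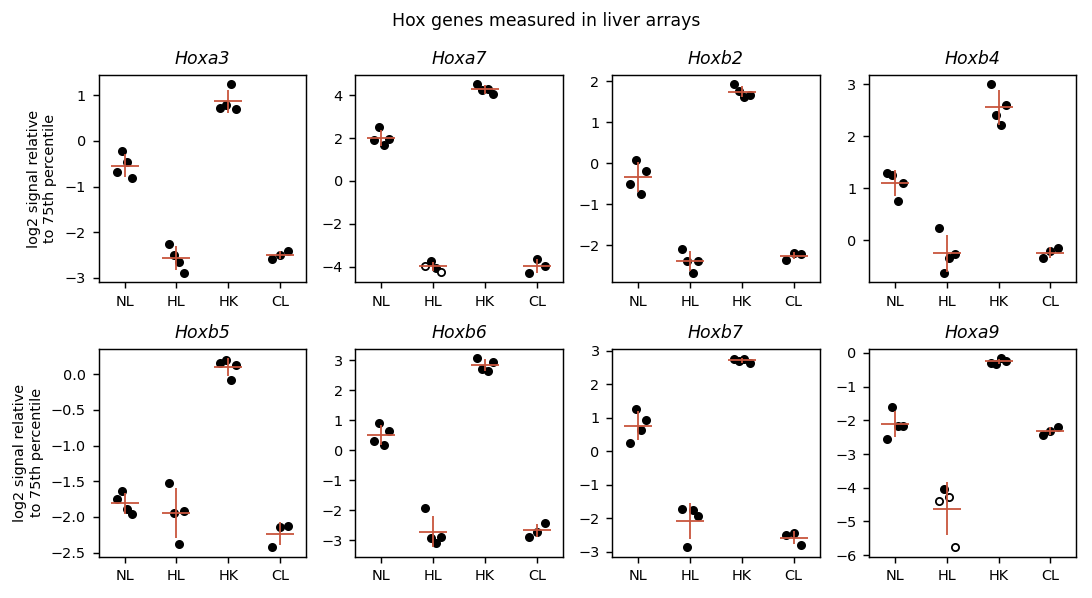
Log2 signal relative to the 75th percentile of the array for 6 Hox genes above background on all arrays and for Hoxa7 and Hoxa9, in neo-liver (NL), host liver (HL), host kidney (HK) and control liver (CL); points are arrays, open where not above background, and bars are the group mean ± SD. Neo-liver points sit between kidney and liver in Hoxa3, Hoxa7, Hoxb2, Hoxb4, Hoxb6 and Hoxb7, and within the host liver range in Hoxb5.

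Markers of other cells moved with these differences. All 10 proximal tubule markers, all 8 of loop and distal tubule, all 8 of collecting duct and all 6 of podocytes were above background on every host kidney array. In neo-liver, 9 of 10 proximal tubule, 8 of 8 loop and distal tubule, 8 of 8 collecting duct and 6 of 6 podocyte markers were called higher than in the host liver, with median log2 differences of 7.20, 5.99, 3.36 and 2.92. Of all genes, 17.1% were called higher in this comparison. Summed over the 10 proximal tubule markers, the log2 level was 7.10 to 8.74 on neo-liver arrays, -0.72 to 0.39 in host liver, 10.01 to 10.48 in host kidney and -0.57 to -0.55 in control liver, and 5 of the 10 (Cubn, Slc22a8, Slc5a12, Slc7a13 and Slc22a12) were above background on no host liver array. The kidney share of an array was taken as the median, over 30 epithelial markers whose host kidney signal was at least 8-fold that of control liver, of the signal in excess of control liver, in percent of that excess in host kidney. It was 19.7, 43.8, 19.3 and 32.2% on the 4 neo-liver arrays (mean 28.7 ± 11.7%, SD, n = 4) and between 0.00688 and 0.0337% on host liver arrays. Hepatocyte markers were above background on all neo-liver arrays, 10 of 10, and 6 of the 10 were called lower than in the host liver (31.0% of all genes). In whole tissue, fewer cells of a type and less RNA per cell cannot be told apart.

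The same percentage was computed for the 20 Hox genes with a host kidney signal at least 8-fold that of control liver. Its median over these genes was 20.9, 34.9, 20.9 and 24.6% on neo-liver arrays 1 to 4. The array with the highest kidney share, array 2, was also the highest for 16 of the 20 Hox genes, and for 22 of the 30 markers. Array 3 was the lowest for 12 of the 20 Hox genes and 19 of the 30 markers. Averaged over the 4 arrays, the Hox genes had a median of 26.1% and a range of 12.1 to 55.5%, and the markers had a median of 29.4% and a range of 3.70 to 79.0%.

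Hoxc genes stood at 43.7 ± 17.3% (Hoxc4), 36.7 ± 9.32% (Hoxc6), 55.5 ± 15.5% (Hoxc9) and 52.7 ± 18.4% (Hoxc10) of host kidney (SD, n = 4). Hoxb genes ran from 12.1 ± 0.852% for Hoxb8 and 15.2 ± 4.97% for Hoxb9 to 24.9 ± 8.16% for Hoxb7. Medians of the cluster were 30.9% for 5 Hoxa genes, 18.7% for 6 Hoxb genes, 48.2% for 4 Hoxc genes and 24.1% for 5 Hoxd genes. Hoxb8 had 11.3, 12.3, 13.1 and 11.5% on the 4 arrays, without the peak on array 2, while Hoxc9 had 38.9, 75.7, 49.8 and 57.8%. Loop, distal and collecting duct markers had a mean share of 20.2 ± 11.4% and proximal tubule markers 32.8 ± 14.0% (SD, n = 4). These shares are set side by side, and no difference between clusters or marker classes was tested.

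**Figure D4:**
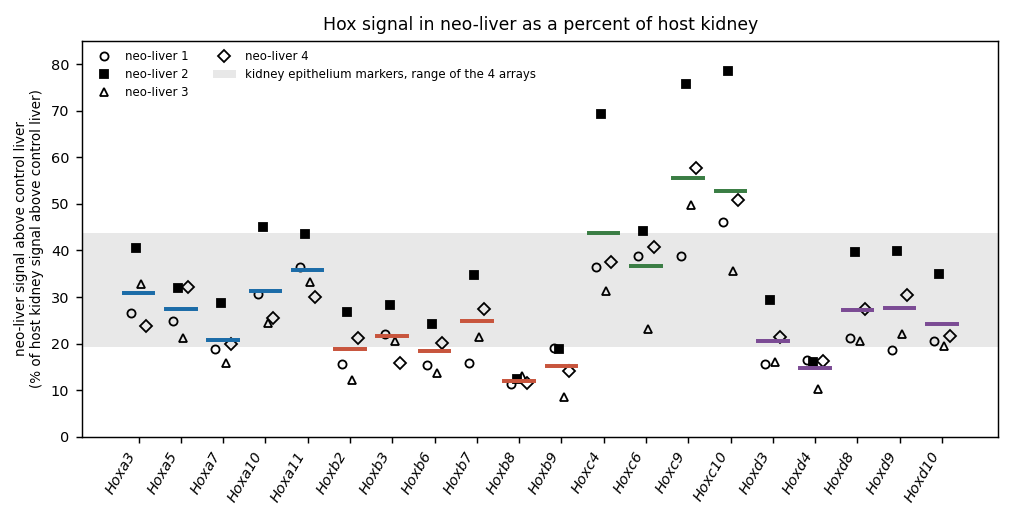
Neo-liver signal in excess of control liver, in percent of that excess in host kidney, for the 20 Hox genes at least 8-fold higher in host kidney; symbols are the 4 neo-liver arrays, coloured bars the mean by cluster, and the grey band spans the kidney marker share of the arrays, 19.3 to 43.8%. The Hoxc genes lie highest and Hoxb8 lowest, with array 2 (filled squares) the highest for 16 of 20 genes.

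When that share of the mean host kidney signal was subtracted from each neo-liver array and signals were set to a common floor, the neo-liver excess over host liver fell to 2 of 29 members called higher. These were Hoxc9 (2.36 ± 0.12, adjusted p = 1.64e-07) and Hoxc6 (1.40 ± 0.47, adjusted p = 0.0207). Both were below the floor of -3.53 on every host and control liver array, so all of these arrays took the same value. Their differences are therefore distances to a chosen floor, and their SE and p-values hold no spread between liver arrays. Lower calls then numbered 5, among them Hoxb2, Hoxb5, Hoxb6 and Hoxb7. After subtraction 20, 25, 22 and 25 of the 29 members were at the floor on neo-liver arrays 1 to 4, where differences are no longer measured. Of the 6 stromal markers of the kidney tested, 4 were higher in neo-liver than in the host liver (17.1% of all genes). Against host kidney 2 of 6 were lower (29.4% of all genes) and 1 was higher (3621 of 15620 genes). Gata3, a collecting duct factor also, was in the stromal list and among both the 4 higher and the 2 lower. The part that stromal cells had in the Hox signal was not tested.

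Of the 8 cofactors tested, 5 were called lower in neo-liver than in host kidney and none higher (of all genes, 52.6% were called in either direction), with a median log2 difference of -0.28. Pknox2 (-1.47 ± 0.24), Pbx3 (-0.85 ± 0.17) and Meis2 (-0.68 ± 0.21) were lower in neo-liver than in host kidney. Each was higher than in the host liver, by 1.26, 0.55 and 0.65, though Pbx3 and Meis2 overlapped between these groups. Pbx2 (-0.28 ± 0.09) and Pknox1 (-0.27 ± 0.08) were lower than in host kidney and also than in the host liver, by -0.39 and -0.24. Against host liver 3 of the 8 were thus called higher (17.1% of all genes) and 2 lower (31.0% of all genes).

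Trithorax and Polycomb genes were measured in 16 cases, of which 3 were higher and 5 lower in neo-liver than in host kidney, a share near that of all genes (52.6% called in either direction). Cbx7, a Polycomb subunit, was below background on all host liver arrays, and was called lower in neo-liver than in host kidney (-1.20 ± 0.28). Ezh2, which writes the silencing mark, was higher in neo-liver than in host kidney (0.72 ± 0.22), and its relative Ezh1 lower (-0.81 ± 0.11). Against host liver 1 of the 16 was called higher (17.1% of all genes) and 3 lower (31.0% of all genes).

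Of 9 genes for retinoid and caudal inputs, which switch Hox genes on in the embryo, 3 were higher and 1 lower in neo-liver than in host kidney, where 52.6% of all genes were called. Aldh1a2, which makes retinoic acid, was lower than in host kidney by -2.36 ± 0.40 and higher than in the host liver by 2.82 ± 0.40. Aldh1a1, of the same family, went the other way. It was higher than in host kidney by 4.30 ± 0.43 and was not called against host liver (-0.99 ± 0.43). Cyp26a1, which breaks retinoic acid down, was higher than in host kidney by 6.95 ± 0.52 and lower than in the host liver by -1.87 ± 0.52.

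Of 10 genes from the kidney network around the group 11 genes, 3 were lower (29.4% of all genes) and 1 higher in neo-liver than in host kidney. The higher one was the probe named Pax2, which also read 7.05 ± 0.87 higher in host liver than in host kidney on the log2 scale. Pax2 is known as a kidney gene, and whether this probe reports it was not tested. Gdnf, the signal that draws out the ureteric bud, and its receptor Ret were above background on every host kidney array and on no array of neo-liver or host liver. Both were dim in host kidney, averaging -4.47 (Gdnf) and -4.75 (Ret). They were thus only bounded at least 1.33-fold and at least 1.09-fold lower in neo-liver, and no bound could be given for host liver. Gata3, a collecting duct factor, had a log2 difference of -1.35 ± 0.19 against host kidney and 3.55 ± 0.19 against host liver. Wt1, a podocyte and mesothelial factor, was not called against host kidney (-0.76 ± 0.56) and was 4.18 ± 0.56 higher than in the host liver on the log2 scale.

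Genes that flank the Hox clusters had calls in both directions. Of 18 tested, 2 were higher and 4 lower in neo-liver than in host kidney (29.4% of all genes were lower). Against host liver none was higher and 7 were lower, where 17.1% of all genes were higher and 31.0% lower. The 2 noncoding RNAs of the clusters that were on the array, Hoxa11os and Hoxd3os1, were both lower in neo-liver than in host kidney and both higher than in the host liver. Hoxd3os1 had levels of -4.04, -2.57, -3.94 and -2.78 in neo-liver and of -0.26, -0.74, -0.88 and -0.54 in host kidney, and Hoxa11os had -1.69, -1.65, -2.11 and -2.50 in neo-liver and -1.25, -0.94, -0.93 and -0.81 in host kidney. Neither was above background on any host liver array. Hoxa11os lies antisense to Hoxa11; the probe was named by accession.

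Homeobox genes outside the clusters include factors that mark each organ. Of 7 such liver genes, 6 had a higher call in neo-liver than in host kidney, with a median log2 difference of 4.14, and 4 were lower than in the host liver. Over all genes, 3621 of 15620 were called higher than in host kidney and 31.0% lower than in the host liver. Hhex, needed to form the liver bud, was 4.81 ± 0.19 higher than in host kidney and -0.65 ± 0.19 against host liver. Of 10 kidney homeobox genes, 8 were lower in neo-liver than in host kidney (29.4% of all genes), with a median of -2.23. Against the host liver 8 were higher (17.1% of all genes). Emx2, needed for the urogenital system, stood at -2.28 ± 0.23 against host kidney and 4.51 ± 0.23 against host liver, and Pax8 at -2.19 ± 0.22 and 4.80 ± 0.22. The probe named Pax2 was the 1 kidney gene called higher against host kidney, with the doubt given above.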

How the data were processed

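Each of the 15 RNA samples was labelled with Cy3 and read on its own array. The deposited scanner files give intensity values that Agilent Feature Extraction 10.10.1.1 had background-subtracted and detrended within each array, per the file headers. In the series table the authors deposited log2 values that for at least 96.9% of probes equalled the log2 of the processed signal less an array constant (tolerance 0.01); its column medians were -3.73 to -3.35.

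The log2 processed signal minus the array's 75th percentile was analysed. Probes well above background on every array of at least 1 group were kept (34990 of 55681; 20389 with a symbol by RefSeq accession), and the brightest probe per symbol gave 15620 genes. No spot was saturated. Precision is limited by how many arrays there are and by signal over background, since arrays have no read depth. One limma model held all arrays (limma 3.58.1 and statmod 1.5.0 in R 4.3.3; tables in Python 3.11.15), with a two-sided Benjamini-Hochberg adjusted p below 0.05 over all genes as the call, tested on simulated data first. Members, lists and alternatives were chosen with earlier results of these data known. The text gives array values for most of the 20 brightest members, though not in every tissue, and gives Hoxb3 as mean and SD. Some genes are counted but not reported here, in text or figures. Residuals of equally numbered host samples correlated at 0.176 to 0.576, each highest with its own number in all 3 pairs of tissues. The numbers were therefore used as pairs in the replicate block. Whether equal numbers mark 1 mouse was not tested, and the main fit took no account of pairing. Alternatives changed scaling, background, filters, blocks, probes and arrays left out. Normexp used median signals with an offset of 50.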

Additional observations from a re-analysis of the deposited data

Results flagged for a closer look

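Among 64 groups of 4 arrays, 5 had an array set apart from the others by Dixon's criterion, and chance flags about 1 in 20 groups. Hoxa2 was highest on host kidney array 3, at -2.44 against -3.12 to -3.01 on the other kidney arrays. Hoxb6 was highest on host liver array 1, at -1.94 against -3.08 to -2.90 on the other 3. Hoxd4 was lowest on neo-liver array 3, at -1.33 against -0.76 to -0.73. Hoxd8 was highest on host kidney array 1, at 3.29 against 2.88 to 2.92. Hoxd11 was highest on host kidney array 4, at -3.86 against -4.83 to -4.78. Host liver array 1 also had the highest Hoxd4 and Hoxb4 of its group, and the highest kidney share, 0.0337%. Its 75th percentile signal, 287, was the lowest of the group. Its lowest signal called above background, -3.53, was the highest of the group. The cause of the high levels on this array was not tested.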

How the results depend on the processing

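Calls of members for neo-liver against host kidney and for host liver against host kidney stayed within 1.5 times the reported counts under every alternative run, with lower calls of 26 to 28 and of 28 to 29. Leaving out 1 array gave 26 to 28 calls for neo-liver against host kidney, 26 throughout against host liver, 23 throughout against control liver, 29 throughout for host liver against host kidney, and 2 to 4 for host liver against control liver. Subtracting the kidney share left 7 calls against host liver (2 higher, 5 lower) and 6 against control liver (2 higher, 4 lower). It turned the sign of Hoxa3 (-0.0369), Hoxb2 (-1.15), Hoxb4 (-1.33), Hoxb6 (-0.82), Hoxb7 (-1.03) and Hoxd4 (-0.49) against host liver, and of the same genes against control liver (-0.12, -1.28, -1.34, -0.86, -0.53 and -0.16 in that order). Its construction removes signal in proportion to kidney, and its common floor was chosen after a first run was seen. Host liver against control liver gave 6 calls with median centring and 1 in a fit of the 2 groups alone; the cause was not tested. The replicate block gave 28, 27 and 29 calls for neo-liver against host kidney, neo-liver against host liver and host liver against host kidney, and added Hoxa4 against host liver. Without the filter 10 dim members entered and counts became 33, 33, 25, 37 and 4 in the order of the text's neo-liver comparisons with host kidney, host liver and control liver, then host liver with host kidney and control liver. The calls added against host kidney were all higher, in neo-liver (Hoxc12 by 0.97) and in host liver (Hoxc12 by 2.23). Those added for neo-liver against host liver were all lower. These directions are opposite to the reported calls. The added members were above background on few arrays or none, so their differences are not measured levels. Over all genes, neo-liver against host liver had 2676 higher and 4844 lower calls, but 2691 and 2573 with quantile normalization, and the all-gene median moved to -0.07 there and to -0.41 with median centring. Host liver against control liver had 2076 higher and 1757 lower calls, but 3211 and 1187 with median centring. Neo-liver against control liver had 3184 higher and 4637 lower, but 3607 and 3284 with quantile normalization. The slide as a random block had a consensus correlation of 0.0369. Only neo-liver and control liver shared a slide, so this block cannot separate slide from tissue in the other comparisons. Members not above background have only bounds, which signal over background limits.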

Other observations

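Grouped by paralog number across the 4 clusters, the median log2 difference between neo-liver and host kidney was -1.42 for group 2 (2 genes tested), -1.92 for group 3 (3 genes), -1.35 for group 4 (4 genes), -1.73 for group 5 (3 genes) and -1.47 for group 6 (3 genes). It was -2.11 for group 7 (2 genes), -2.44 for group 8 (2 genes), -1.88 for group 9 (4 genes), -1.69 for group 10 (3 genes) and -1.62 for group 11 (2 genes). Groups 7 and 8 had the lowest medians of groups 2 to 11 in this comparison, and no difference between groups was tested.

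Marker lists of other cell types were read beside the Hox genes. Over all genes, 3621 of 15620 were called higher in neo-liver than in host kidney. Against host liver 17.1% of all genes were called higher and 31.0% lower, and against control liver 20.4% higher. Hepatic stellate cell markers had 7 of 8 called higher in neo-liver than in host kidney, and 1 higher and 1 lower against host liver. Mesothelial markers, which line the kidney capsule, had 2 of 3 higher against host kidney, 1 of 3 higher against host liver and 2 of 3 higher against control liver. The 1 higher against host liver was Wt1, a podocyte factor also. Blood cell markers had 4 of 5 called higher against host kidney, none against host liver and 2 of 5 against control liver. Endothelial markers had 1 of 5 higher and 2 lower against host kidney, where 29.4% of all genes were lower. Against host liver 1 of the 5 was higher, and against control liver also 1. Tbx18, a stromal progenitor marker, was above background on no neo-liver and no host kidney array, and adrenal Cyp11a1 likewise on none. Other members of their lists were measured. Of the 7 stromal markers, 5 were above background on every neo-liver array and 6 on every host kidney array. Of the 4 adrenal markers, 1 was above background on every neo-liver array and 2 on every host kidney array. The part of these cells in the Hox signal was not tested.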
